A study of Mus musculus with 4 samples.

Results

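The genes described here are 10 genes of selective autophagy, taken by gene name from the 54532 rows of the deposited expression table. They are the cargo receptor genes Sqstm1, Nbr1 and Optn, the LC3 genes Map1lc3a and Map1lc3b, the GABARAP genes Gabarap, Gabarapl1 and Gabarapl2, and 2 genes of the machinery that forms the autophagosome, Becn1 and Atg5. Each name matched 1 row, and all 10 genes had a mean of at least 1 FPKM (fragments scaled to gene length and library size) and were tested. RNA was sequenced from cultured mouse cells labelled as primary lung fibroblasts, in 2 libraries with the genotype label Calu-WT (WT below) and 2 with the label Calu-KO. Calumenin, the product of Calu, binds calcium inside the endoplasmic reticulum (ER) and along the route of secretion, and the study concerns protein folding, vimentin and fibrosis. The labels give no treatment, age or strain, nor how Calu was targeted. Whether a group's 2 libraries stem from different mice or dishes is also not stated, and p-values therefore reflect just the variation among these 4 libraries, which could be technical. The titles of the Calu-KO libraries carry the letters KD where the genotype label says KO.

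Selective autophagy removes protein aggregates, damaged organelles and pieces of the ER. Receptors such as p62, the product of Sqstm1, bind ubiquitin on the cargo with one domain and LC3 or GABARAP proteins on the growing membrane with a short motif, so that the cargo is enclosed and carried to the lysosome. LC3 and GABARAP proteins are small ubiquitin-like proteins that are joined to membrane lipid by a conjugation cascade that includes ATG5, and beclin 1, from Becn1, belongs to the lipid kinase complex that prepares the membrane. p62 is itself degraded with its cargo, so its protein level is often read as a sign of autophagic turnover, whereas the values here are mRNA levels and do not measure that turnover.

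The libraries held 15635448 to 16510048 recovered reads. The deposited FPKM scaling implied a library size of 1.46e+07 for Calu-KO replicate 2, below its 16038560 recovered reads. For the other libraries the implied size was 1.64e+07 to 1.69e+07, above their recovered reads. Calu-KO replicate 2 also had the fewest genes with a read, 18739 against 19772 to 20477. Calu stood at 178 and 177 FPKM in WT and at 14.9 and 10.9 FPKM in Calu-KO, in the direction of the labels. The libraries of Calu-KO differed from each other more than those of WT (mean chi-square per gene of 46.3 against 3.82), and mitochondrial genes took 4.0% of reads in Calu-KO replicate 2 against 2.43% to 2.53% in the other libraries. Of 10 fibroblast markers, Col1a1, Col1a2, Pdgfra, Pdgfrb, S100a4 and Vim were tested and none was called, but Dcn and Lum, which are widely used fibroblast markers, had no reads in any library, and Thy1 and Fbln1 stood at 0.0408 to 0.137 and 0 to 0.165 FPKM. Epithelial, endothelial and lymphocyte marker lists summed to between 0 and 1.21 FPKM.

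Promoter sequence is shown for Sqstm1, which passed the test, and for Map1lc3b and Atg5, the members whose windows held a match to a motif of an autophagy or stress transcription factor. RefSeq start-site windows (GRCm38.p6, 250 bases before to 50 after the start) were found for 8 of the 10 genes, 9 windows in all, with none for Map1lc3a and Becn1. The 250 bases before the start are given 5′ to 3′ on the strand of the gene, for Sqstm1 at chr11:50210821-50211070 (minus strand), Map1lc3b at chr8:121590188-121590437 (plus strand) and Atg5 at chr10:44268089-44268338 (plus strand). Capitals mark GGGCGG on either strand, the GC box of SP-family factors, and in Atg5 also CACGTG, the E-box core of TFEB and its relatives.
Sqstm1: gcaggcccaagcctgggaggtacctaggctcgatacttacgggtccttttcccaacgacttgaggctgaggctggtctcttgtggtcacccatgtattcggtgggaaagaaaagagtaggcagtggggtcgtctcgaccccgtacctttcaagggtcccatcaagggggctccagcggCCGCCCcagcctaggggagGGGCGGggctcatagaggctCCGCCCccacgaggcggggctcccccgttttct
Map1lc3b: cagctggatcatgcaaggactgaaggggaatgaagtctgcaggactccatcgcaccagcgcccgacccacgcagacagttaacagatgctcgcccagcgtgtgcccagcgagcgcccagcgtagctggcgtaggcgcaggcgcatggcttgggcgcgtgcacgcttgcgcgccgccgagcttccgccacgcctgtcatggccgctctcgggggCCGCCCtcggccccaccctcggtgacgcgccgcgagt
Atg5: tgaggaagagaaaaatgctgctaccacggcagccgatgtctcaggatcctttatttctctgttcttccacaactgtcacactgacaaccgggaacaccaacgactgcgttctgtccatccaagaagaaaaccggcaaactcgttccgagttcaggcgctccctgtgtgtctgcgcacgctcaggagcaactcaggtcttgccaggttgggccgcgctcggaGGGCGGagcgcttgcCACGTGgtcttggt

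The Sqstm1 window held 3 matches to GGGCGG, ending 67, 48 and 28 bases before the start, and no match to the other 4 motifs searched. CACGTG was found in 1 of the 8 genes, Atg5, ending 9 bases before the start, and in 7.15% of all 32851 windows. TGACNNNGC, the core of the antioxidant response element bound by NRF2, was found in Map1lc3b alone, 5 to 13 bases after the start, and in 12.4% of all windows. The CLEAR palindrome of lysosomal gene promoters and TGATGNAA, the core of an ATF4 site, were found in none of the 8 and in 0.326% and 3.97% of all windows. GGGCGG, a motif added after the windows were seen, was found in 7 of the 8 genes, all but Gabarap, and in 35.7% of all windows. Every motif was searched on both strands, CACGTG lies within the CLEAR palindrome, and a match is only a match of letters. Sequence outside the windows was not searched, so the lack of a match says nothing about sites further away.

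Sqstm1 was the only member past the test, and it was lower in Calu-KO. It encodes p62, a receptor that binds ubiquitinated proteins and gathers them into bodies (ENSMUSG00000015837, chromosome 11, 50199366 to 50210827, minus strand, mm10). Sqstm1 stood at 178 and 173 FPKM in WT replicates 1 and 2, and at 108 and 105 FPKM in Calu-KO replicates 1 and 2. Both Calu-KO libraries lay below both WT libraries, as in 29.7% of all genes tested. At the deposited scaling the libraries of each group lay within 3.26% of each other. Means were 176 ± 3.83 FPKM for WT and 107 ± 2.42 for Calu-KO (SD, n = 2 each), a fall of 1.65-fold. On the log2(FPKM + 1) scale the change was -0.72 ± 0.11 (SE; 95% interval -0.99 to -0.44, limma adjusted p = 0.0451). The WT libraries held 9807 and 9648 reads of Sqstm1, and the Calu-KO libraries 6144 and 5142. Of the 11885 genes tested, 1.83% were called lower, 0.942% higher and 2.77% in either direction at this threshold (adjusted p under 0.05). The 1 call among 10 members is set beside that background as a description only. Members were chosen with earlier results of these data known, so the count is not independent of the choice. By unadjusted p, Sqstm1 ranked 291 among the genes tested. Its adjusted p was 0.549 without WT replicate 1 and 0.487 without WT replicate 2, with log2 changes of -0.69 and -0.74, and it was 0.0508 to 0.549 in the 8 of 17 alternative settings in which the call was lost.

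**Figure D1:**
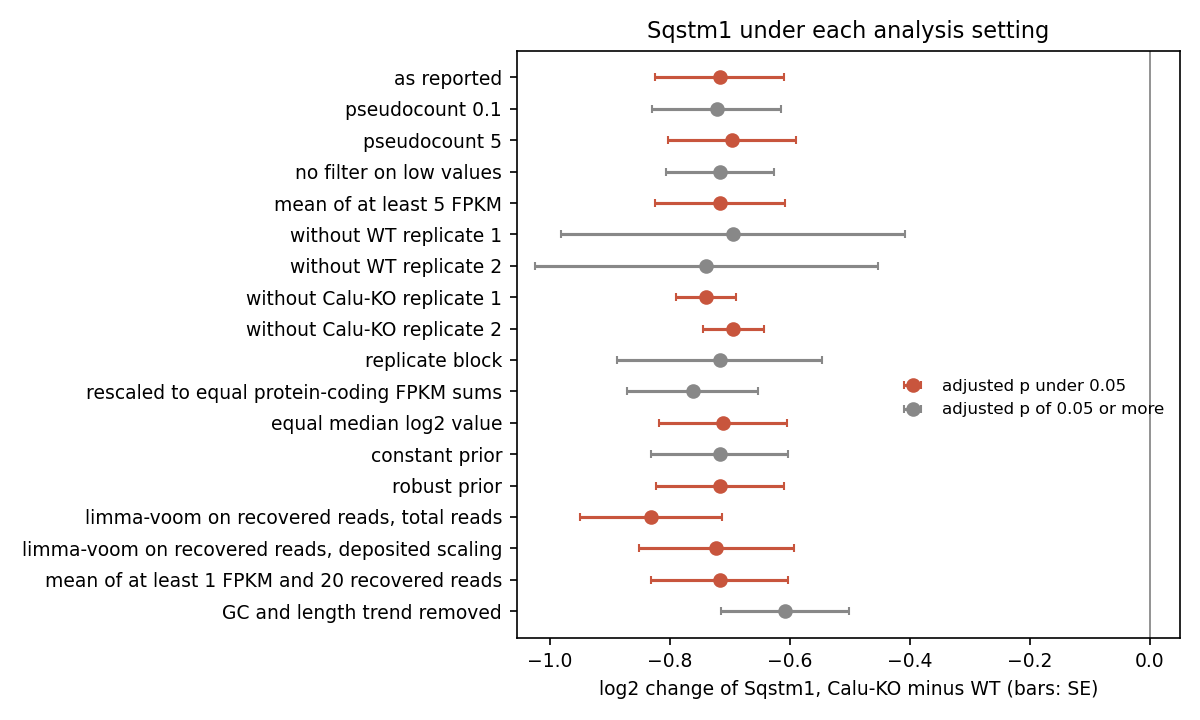
The log2 change of Sqstm1 (Calu-KO minus WT, x axis) is shown for the reported fit and the 17 alternatives (y axis), with bars for the SE and red points where the limma adjusted p is under 0.05. Every point lies between -0.83 and -0.61, and 8 of the 17 alternatives have a grey point, where it is 0.05 or more.

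Among genes tested, Sqstm1 ranked 195 and 217 from the top by FPKM in the WT libraries and 371 and 379 in the Calu-KO libraries. It shared 580 exonic bases with Mrnip, a gene on the opposite strand, in the GENCODE M21 annotation. Mrnip had 20 to 47 reads per library, and since a strand setting is not given in the sources used here, reads of such overlaps cannot be told apart. Macrophage markers were also lower in Calu-KO. The 10 summed to 16.7 and 17.1 FPKM in WT against 7.70 and 6.56 for Calu-KO, and 1 of the 3 tested, the lysozyme gene Lyz2, was called lower (limma). Of the defining macrophage genes, Adgre1, Mrc1 and Itgam had no reads in any library, Ptprc had 1 read in each WT library and none in Calu-KO, and Csf1r stood at 0.0605 to 0.210 FPKM. The 7 mesothelial markers summed to 35.9 and 32.8 FPKM in WT against 25.4 and 22.7 for Calu-KO, where 1 of 2 tested genes, Krt8, was called lower, while Upk3b, Wt1 and Lrrn4 had 0 to 3 reads per library. The 8 pericyte and smooth muscle markers summed to 53.2 to 53.5 FPKM in WT against 55.5 and 66.1 for Calu-KO. Most of each sum was Cspg4 (36.7 and 34.5 FPKM in WT, 30.1 and 45.2 for Calu-KO), which was not called. Mcam was called higher and Des lower, and Rgs5 and Cnn1 had no reads. Any part of such cells in the value of Sqstm1 was not tested, and in bulk RNA fewer cells of a type and less RNA per cell cannot be told apart.

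Neither of the other 2 receptors passed. Nbr1 encodes a receptor that works with p62 in the clearance of ubiquitinated aggregates (chromosome 11, 101552149 to 101581951). Nbr1 stood at 12.3 and 12.5 FPKM in WT and at 14.2 and 16.0 FPKM in Calu-KO. Its groups did not overlap and it lay on the opposite side from Sqstm1, but the difference did not pass (log2 change 0.26 ± 0.12, 95% interval -0.04 to 0.56, limma adjusted p = 0.243). With 1 Calu-KO library left out, the other is assumed to vary like the WT pair, and far more genes pass: 48.2% of all genes tested without Calu-KO replicate 1 (24.6% higher, 23.6% lower) and 17.3% without replicate 2. Nbr1 was among those called higher without replicate 1 (log2 change 0.34, limma adjusted p = 0.0189) and was not called without replicate 2 (0.18, 0.146). Optn encodes optineurin, a receptor for damaged mitochondria, bacteria and aggregates that the kinase TBK1 phosphorylates. Optn stood at 8.46 and 8.52 FPKM in WT and at 6.87 and 10.1 FPKM in Calu-KO. The Calu-KO libraries lay on either side of WT (log2 change -0.02 ± 0.19, 95% interval -0.51 to 0.46, limma adjusted p = 0.952).

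Across the receptor genes, the ratio of Sqstm1 to Nbr1 FPKM was 14.6 and 13.8 in WT and 7.65 and 6.57 in Calu-KO. Sqstm1 made up 89.6% and 89.1% of the summed FPKM of the 3 receptors in WT, and 83.7% and 80.1% in Calu-KO. Nbr1 made up 6.15% and 6.46% in WT and 10.9% and 12.2% in Calu-KO. Both groups were separate in each of these measures, where the exact permutation test of 2 against 2 libraries gave the smallest two-sided p it can give, 0.33. In Calu-KO, Sqstm1 still exceeded the other 2 receptor genes together in FPKM.

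Of the LC3 genes, Map1lc3b had separate groups, as did 61.6% of all genes tested (29.7% lower), and Map1lc3a did not. Map1lc3b encodes LC3B, the protein most used to mark autophagosomes (chromosome 8, 121590361 to 121598760). Map1lc3b stood at 10.1 and 9.80 FPKM in WT and at 7.81 and 7.77 FPKM in Calu-KO. Both Calu-KO libraries were lower than both WT libraries and lay close together at the deposited scaling, on 993 and 853 reads. Map1lc3b had a log2 change of -0.32 ± 0.11 (95% interval -0.59 to -0.04) that did not pass over all genes (limma adjusted p = 0.165, unadjusted p = 0.0309). It was called lower without Calu-KO replicate 1 (log2 change -0.32, limma adjusted p = 0.0295), where 23.6% of all genes were called lower, and not without replicate 2 (-0.31, 0.0623). Map1lc3a encodes LC3A (chromosome 2, 155276297 to 155278073). Map1lc3a stood at 5.59 and 7.03 FPKM in WT and at 6.16 and 5.68 FPKM in Calu-KO, on 98 to 138 reads per library, the fewest of the 10 genes. Both Calu-KO values lay between the WT values, and the log2 change was -0.07 ± 0.15 (95% interval -0.45 to 0.30, limma adjusted p = 0.773). With the trend on GC content and gene length removed it was 0.29.

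GABARAP proteins act alongside LC3 and are linked to the closure of the autophagosome and its fusion with lysosomes. Gabarap was the highest of the family (chromosome 11, 69991143 to 69994951). Gabarap stood at 131 and 130.4 FPKM in WT and at 114 and 93.5 FPKM in Calu-KO. Both Calu-KO libraries were lower, but they differed from each other by 22.0% where the WT libraries differed by 0.160%, and the log2 change of -0.34 ± 0.14 did not pass (95% interval -0.69 to 0.02, limma adjusted p = 0.217). Among the 23.6% of genes called lower without Calu-KO replicate 1, Gabarap had a log2 change of -0.48 (limma adjusted p = 0.00429), and it was not called without replicate 2 (-0.19, 0.0648). Gabarapl1 (chromosome 6, 129533160 to 129542346) stood at 14.6 and 17.0 FPKM in WT and at 15.2 and 13.4 FPKM in Calu-KO. Its groups overlapped (log2 change -0.13 ± 0.13, 95% interval -0.48 to 0.21, limma adjusted p = 0.556). Gabarapl2, also known as GATE-16 (chromosome 8, 111940703 to 111953612), stood at 11.3 and 10.5 FPKM in WT and at 12.7 and 8.77 FPKM in Calu-KO. Calu-KO replicate 1 was above both WT libraries and replicate 2 below them (log2 change -0.04 ± 0.19, 95% interval -0.53 to 0.44, limma adjusted p = 0.898).

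**Figure D2:**
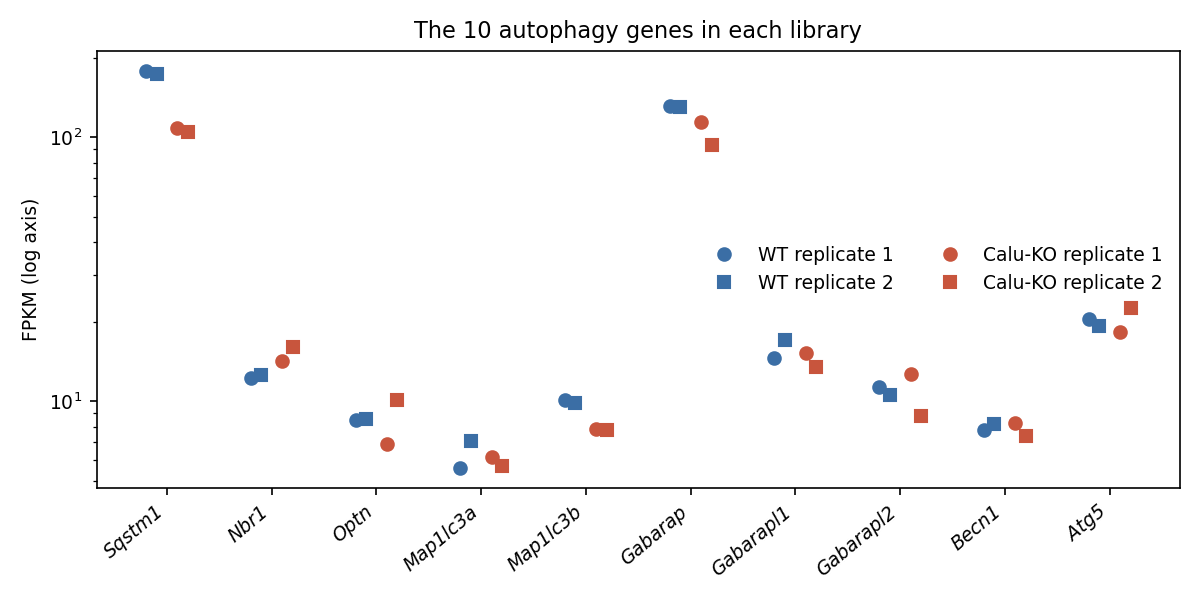
FPKM of each of the 10 genes on a log axis (y axis), with 1 point per library: WT in blue, Calu-KO in red, replicate 1 as circles and replicate 2 as squares. Sqstm1 and Gabarap stand near or above 100 FPKM, and the groups are separate for Sqstm1, Nbr1, Map1lc3b and Gabarap. Over all genes tested, 61.6% had separate groups.

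The 5 LC3 and GABARAP genes summed to 172 and 175 FPKM in WT and to 156 and 129 FPKM in Calu-KO. Their sum was thus lower in both Calu-KO libraries, with most of the difference in Gabarap, and the exact permutation p was 0.33, the smallest possible. Gabarap made up 75.9% and 74.6% of the sum in WT and 73.2% and 72.4% in Calu-KO, a difference of -2.45 percentage points (exact permutation p = 0.33). Gabarapl1 made up 8.46% to 10.4%, Gabarapl2 6.03% to 8.14%, Map1lc3b 5.01% to 6.01% and Map1lc3a 3.24% to 4.40% of the sum over the 4 libraries. The order of the 5 by mean FPKM was the same in both groups. FPKM depends on the gene length used, which for all 10 members was the union of annotated exons (7517 bases for Map1lc3b, 1844 for Gabarap), so that Map1lc3b held 17.5% to 20.5% of the family's reads but at most 6.01% of its FPKM.

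**Figure D3:**
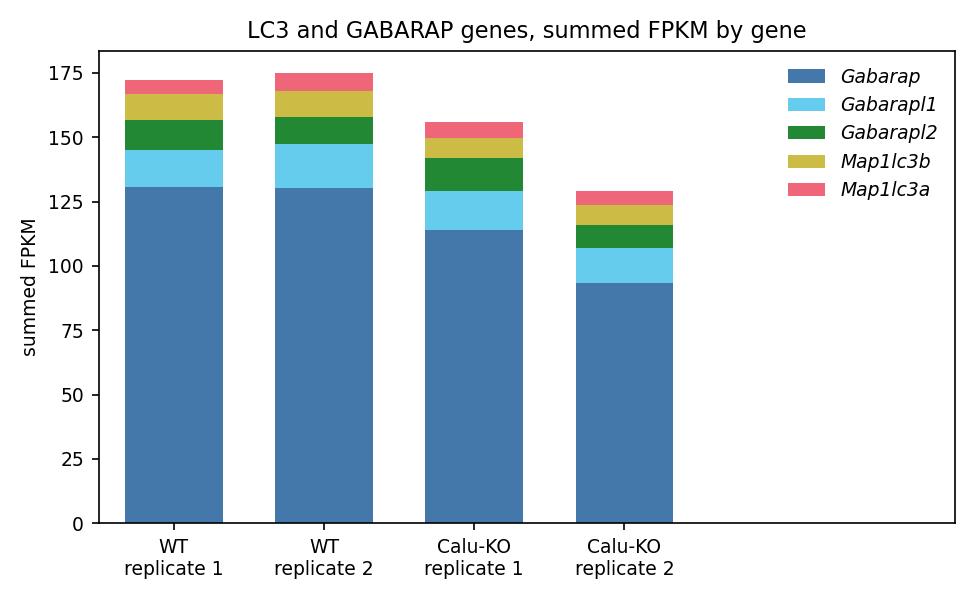
Summed FPKM (y axis) of the 5 LC3 and GABARAP genes in each of the 4 libraries (x axis), coloured by gene. The bars reach 172 and 175 in WT and 156 and 129 in Calu-KO, and Gabarap fills 72.4% to 75.9% of each.

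Becn1 and Atg5, the genes of the core machinery, had overlapping groups. Beclin 1 is a subunit of the class III phosphatidylinositol 3-kinase complex (Becn1, chromosome 11, 101285952 to 101302286). Becn1 stood at 7.78 and 8.15 FPKM in WT and at 8.22 and 7.39 FPKM in Calu-KO (log2 change -0.03 ± 0.12, 95% interval -0.33 to 0.27, limma adjusted p = 0.896). It shares 3104 exonic bases with Cntd1 on the opposite strand, which had 0 to 4 reads per library. ATG5 forms with ATG12 and ATG16L1 the complex that places LC3 on the membrane (Atg5, chromosome 10, 44268358 to 44364291). Atg5 stood at 20.4 and 19.3 FPKM in WT and at 18.3 and 22.6 FPKM in Calu-KO (log2 change 0.03 ± 0.14, 95% interval -0.33 to 0.39, limma adjusted p = 0.906). For both genes, as for every other member except Sqstm1, the lower end of the interval lay above the -0.72 of Sqstm1. Sqstm1 itself had an interval of -0.99 to -0.44.

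**Figure D4:**
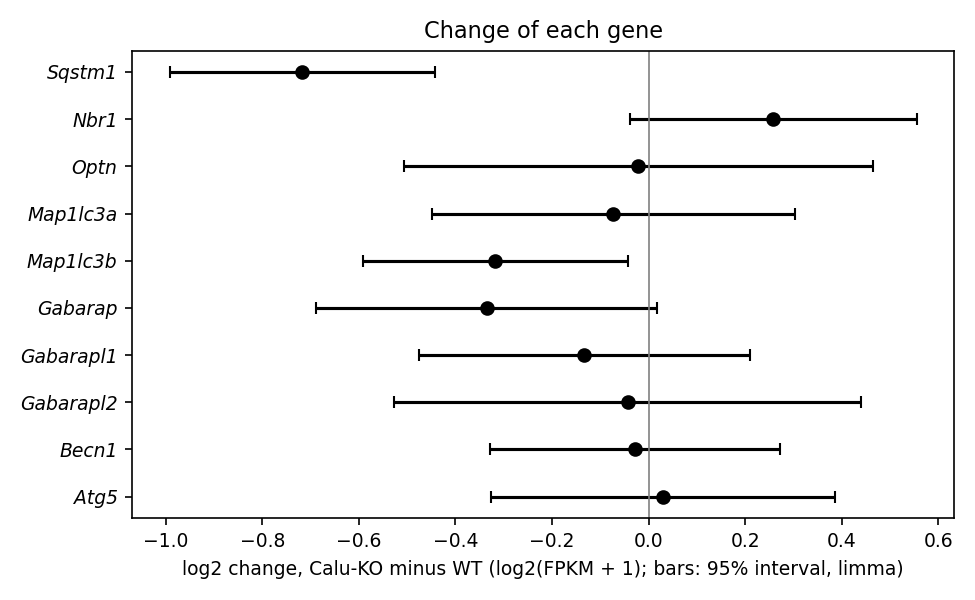
Log2 change of each gene, Calu-KO minus WT (x axis, log2(FPKM + 1)), with 95% intervals from limma. Intervals of Sqstm1 and Map1lc3b lie below 0, and only Sqstm1 passed after adjustment over all 11885 genes.

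Over the 10 genes, 1 was called lower and none higher (limma, with 2 at an unadjusted p under 0.05 against 24.8% of all genes tested), and the median log2 change was -0.06 against 0.01 over all genes tested. Of the 10, 3 had both Calu-KO libraries below WT, 1 had both above, and 6 overlapped. Over all genes tested, 29.7% were separate and lower, 32.0% separate and higher, and 61.6% separate in either direction, so separate groups were no more common among the 10. In WT the genes ranked by mean FPKM from Sqstm1 (176) and Gabarap (131) through Atg5 (19.9), Gabarapl1 (15.8), Nbr1 (12.4), Gabarapl2 (10.9), Map1lc3b (9.95), Optn (8.49) and Becn1 (7.97) to Map1lc3a (6.31), and no neighbours in that order overlapped between the WT libraries. In Calu-KO the order was Sqstm1 (107), Gabarap (104), Atg5 (20.4), Nbr1 (15.1), Gabarapl1 (14.3), Gabarapl2 (10.7), Optn (8.49), Becn1 (7.81), Map1lc3b (7.79) and Map1lc3a (5.92). There, Sqstm1 overlapped with Gabarap, Nbr1 with Gabarapl1, Gabarapl2 with Optn, Optn with Becn1, and Becn1 with Map1lc3b. The order in either group depends on the gene lengths used, such as 7517 bases for Map1lc3b and 2352 for Atg5.

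Other genes of the pathway were read from 10 lists by role, 104 genes of which 98 were tested. None passed in either direction (limma, 14 lower and 7 higher at an unadjusted p under 0.05, 21.4% against 24.8% of all genes tested), 52 lay above 0 and 46 below it in log2 change, with a median of 0.02 against 0.01 over all genes. With limma-voom on recovered reads 4 of them were called lower at total-read scaling, where 4.11% of all genes were, and 3 at the deposited scaling, where 3.95% were. None was called higher. With genes under a mean of 20 reads left out, 2 were called lower, against 2.98% of all genes. These counts are near the shares over all genes. Snap29 and Tecpr1 were called in all of these fits, Nfe2l2 and Ncoa4 in the fit at total-read scaling, and Atg3 in that at the deposited scaling.

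Among genes of fusion with the lysosome, 0 of 14 passed (5, or 35.7%, at an unadjusted p under 0.05, limma). Over all genes tested that share was 24.8%, which also stands beside the counts of the lists that follow. Snap29, which encodes a SNARE protein of that fusion, stood at 10.9 and 11.9 FPKM in WT and at 6.35 and 6.93 FPKM in Calu-KO (log2 change -0.70 ± 0.12, limma adjusted p = 0.0569). Both Calu-KO libraries were lower, by an amount close to that of Sqstm1. Tecpr1, which encodes a tethering factor on lysosomes, had 2.75 and 2.99 FPKM in the WT libraries against 1.42 and 1.43 in those of Calu-KO (-0.67 ± 0.14, limma adjusted p = 0.0860), with separate groups.

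In the LC3 conjugation list, 0 of 10 passed (2 at an unadjusted p under 0.05, limma). Atg3, which encodes the E2-like enzyme that transfers LC3 to lipid, stood at 13.2 ± 1.18 FPKM in WT against 8.40 ± 0.430 for Calu-KO (SD, n = 2 each; log2 change -0.59 ± 0.12, limma adjusted p = 0.0807). Atg7, the E1-like enzyme of the same cascade, stood at 3.42 ± 0.10 and 3.72 ± 0.840 FPKM (0.08 ± 0.17). The protease gene Atg4c had a log2 change of 0.35 ± 0.16. Of the steps that start the autophagosome, none of 5 initiation genes passed (1 at an unadjusted p under 0.05, limma). Their kinase genes Ulk1 and Ulk2 had log2 changes of -0.10 ± 0.12 and 0.44 ± 0.15, and the scaffold gene Rb1cc1 0.37 ± 0.20. Of 9 genes of the lipid kinase complex and its regulators and 9 tested genes of membrane supply, none passed (1 in each list at an unadjusted p under 0.05, limma). The 2 greatest log2 changes of the first list were 0.50 ± 0.17 for Bcl2, whose product binds beclin 1, and 0.28 ± 0.15 for Pik3r4, a subunit of the complex. Those of the second were 0.40 ± 0.17 for the lipid transfer gene Atg2a and 0.36 ± 0.18 for the scramblase gene Tmem41b.

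Other cargo receptors and adaptors gave 0 of 11 past the test (4, or 36.4% against 24.8% of all genes tested, at an unadjusted p under 0.05, limma). Stbd1, which encodes a glycogen-binding receptor, stood at 24.7 ± 0.310 FPKM in WT against 16.0 ± 2.76 for Calu-KO (log2 change -0.61 ± 0.15, limma adjusted p = 0.101). Calcoco1 had a log2 change of -0.62 ± 0.22. Of 7 tested ER-phagy receptors none passed (1 at an unadjusted p under 0.05, limma), and the median was 0.18. Retreg1, also called FAM134B, which clears sheet-like ER, stood at 4.98 and 6.63 FPKM in WT against 7.98 and 8.69 for Calu-KO (0.47 ± 0.16, limma adjusted p = 0.168), while Tex264 stood at 26.2 ± 0.0309 and 19.04 ± 4.53 FPKM (-0.46 ± 0.18). The Calu-KO libraries lay above WT for Retreg1 and below it for Tex264, and neither difference passed.

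Genes of partners and kinases of p62 and optineurin, and of transcription factors of autophagy genes, gave no call with limma on log2(FPKM + 1). With limma-voom at total-read scaling, Nfe2l2 was called lower (log2 change -0.55, adjusted p = 0.0441). At that scaling 4.11% of all genes were called lower, and the median log2 change of all genes was -0.10. With limma-voom at the deposited scaling, Nfe2l2 was not called. Of 12 tested partners and kinases, 0 passed (3, or 25% against 24.8% of all genes tested, at an unadjusted p under 0.05, limma). KEAP1 holds the transcription factor NRF2 for degradation and is bound by p62, and Sqstm1 is itself a known NRF2 target. Any part of NRF2 in the change of Sqstm1 was not tested. Nfe2l2, which encodes NRF2, stood at 24.0 and 25.1 FPKM in WT and at 17.7 and 18.6 FPKM in Calu-KO (log2 change -0.42 ± 0.11, limma adjusted p = 0.111). Both Calu-KO libraries were lower. Keap1 stood at 13.6 ± 1.06 and 15.2 ± 2.66 FPKM (0.14 ± 0.16), and Tbk1 at 18.4 ± 1.07 and 16.4 ± 2.22 FPKM (-0.17 ± 0.14), both with overlapping groups. The ubiquitin ligase gene Huwe1 and the kinase gene Csnk2a1 had log2 changes of 0.51 ± 0.31 and 0.47 ± 0.25, each with Calu-KO replicate 2 far above the other 3 libraries. Of 7 tested transcription factor genes 0 passed (2, or 28.6% against 24.8% of all genes tested, at an unadjusted p under 0.05, limma). A negative log2 change was seen for 6 of them, and for 5860 of all 11885 genes tested. Tfe3 and Tfeb, which encode activators of lysosomal and autophagy genes, stood at 7.34 ± 0.594 and 2.39 ± 0.168 FPKM in WT and at 5.43 ± 0.328 and 2.05 ± 0.319 in Calu-KO (-0.38 ± 0.12 and -0.16 ± 0.16). Atf4, a stress transcription factor gene, had a log2 change of -0.48 ± 0.21. Of 14 genes of the nutrient kinases mTORC1 and AMPK, 0 passed (1 at an unadjusted p under 0.05, limma), and the greatest log2 changes were those of the AMPK subunit genes Prkag1 (-0.64 ± 0.32) and Prkab2 (-0.60 ± 0.16).

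**Figure D5:**
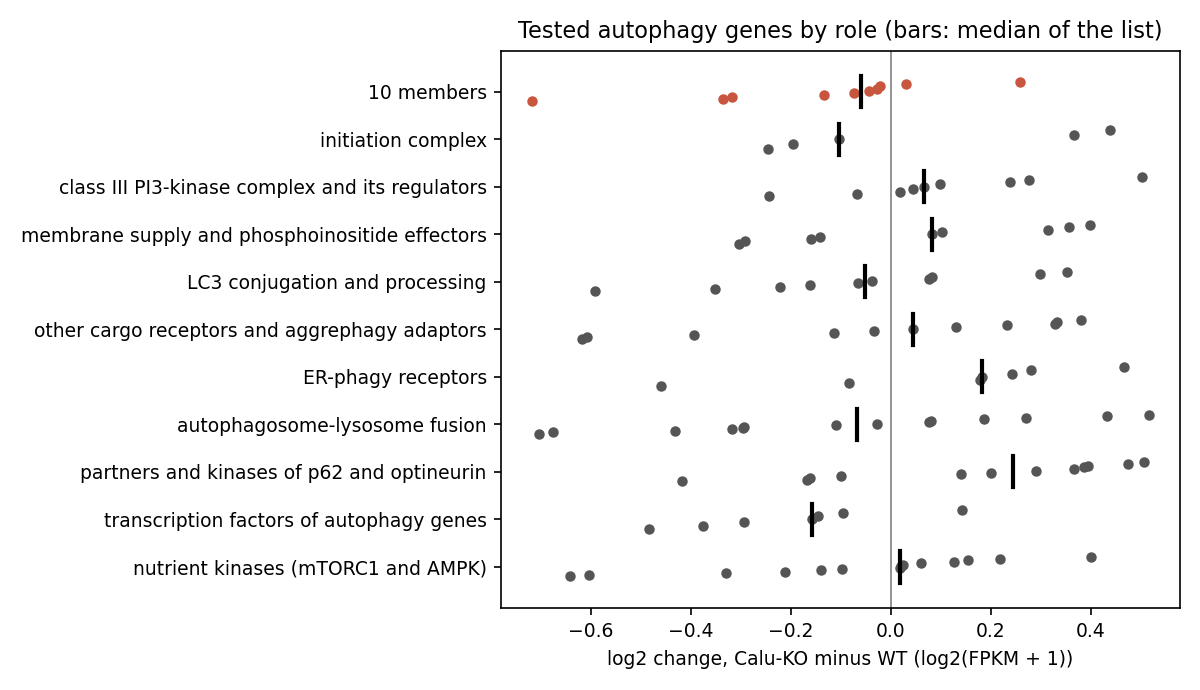
Log2 change of every tested gene (x axis, Calu-KO minus WT) in the 10 members (red) and in the 10 lists of other autophagy genes (grey), with a black bar at each list's median. On this scale Sqstm1, at -0.72, is the lowest point, and Snap29, at -0.70, the next. By ratio of mean FPKM the order differs. Tecpr1 (2.02-fold), Calcoco1 (1.80-fold), Prkab2 (1.77-fold) and Snap29 (1.72-fold) fell more than Sqstm1 (1.65-fold).

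The 5 protein-coding genes whose pattern over the 4 libraries was most like that of Sqstm1 were Mtm1 (a phosphoinositide phosphatase), Rap1gap (which inactivates the GTPase Rap1), Pard3b (a polarity protein), Wdr46 and Cbarp, out of 10202 searched. Likeness was the Euclidean distance between log2(FPKM + 1) values centred on each gene's mean, which ran from 0.0352 to 0.0591 for these genes. Wdr46 was the closest in level, at 22.8 and 22.6 FPKM in WT against 14.3 and 13.5 for Calu-KO. By ratio of mean FPKM it fell 1.63-fold, against 1.65-fold for Sqstm1. The others stood lower and fell more, Mtm1 2.82-fold, Rap1gap 2.28-fold, Pard3b 2.26-fold and Cbarp 1.93-fold. Their likeness thus holds only on the log2(FPKM + 1) scale, which understates changes of low genes. None of the 5 is in the pathway lists, and with 2 groups of 2 libraries the distance is a description only.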

How the data were processed

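RNA of 4 libraries was sequenced, and the libraries were grouped by genotype and numbered by the sample descriptions. Per the labels' protocols, HISAT2 2.0.5 aligned the paired-end reads. The build was mm10, per the submitters' processing notes. No counter, annotation or strand setting is named in the labels or the file header. The authors deposited FPKM values for 54532 genes, 1 column per library, with the gene length in bases. Reads were recovered from FPKM times gene length, since 100% of these products were whole multiples (tolerance 0.001 reads) of the value of 1 read, which for 1 kb of gene equals 0.0591 to 0.0684 FPKM. Member coordinates, as deposited, equalled those of GENCODE M21.

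From these values, the 11885 genes that averaged 1 FPKM or more were tested on log2(FPKM + 1), which understates changes of low genes, with limma 3.58.1 in R 4.3.3 (intensity-dependent prior, two-sided, Benjamini-Hochberg over all genes tested, threshold 0.05). Folds are ratios of mean FPKM. The steps were tested on simulated data, and a filter on reads was added as an alternative. The simulation gave all 4 libraries the same spread, so it does not cover the unequal spread of the WT and Calu-KO pairs. Motif windows came from RefSeq (GRCm38.p6). The members and lists were chosen with earlier results of these data known. Named genes are the members, Calu, the 2 genes of each list with the greatest absolute log2 change, any list gene past the threshold, 7 regulators (Tfeb, Tfe3, Nfe2l2, Keap1, Atg7, Ulk1 and Tbk1) and the 5 genes most like Sqstm1. Marker genes, Mrnip, Cntd1 and Ncoa4 are named outside that rule. Alternatives were other pseudocounts, filters, scalings and priors, a replicate block, each library left out, limma-voom on recovered reads, and removal of the trend on GC content (longest GENCODE M21 transcript) and length.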

Additional observations from a re-analysis of the deposited data

How the results depend on the processing

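Sqstm1 was lower in all 17 alternatives (log2 change -0.83 to -0.61) and called in 9. The call was lost with a pseudocount of 0.1 (-0.72, limma adjusted p = 0.0508), with no filter on low values (-0.72, 0.130), after rescaling to equal protein-coding sums (-0.76, 0.0531), with a constant prior (-0.72, 0.0558) and with the GC and length trend removed (-0.61, 0.0691). With a replicate block it was -0.72 (0.0678). Leaving out a library gave -0.74 to -0.69. Among the 9 were the fits without Calu-KO replicate 1 and without Calu-KO replicate 2. There the other Calu-KO library is assumed to vary like the WT pair, and far more genes of the whole table pass. Without WT replicate 1 or 2, Sqstm1 was not called. The cause of these losses was not tested. The shared numbers are not shown to pair the libraries: differences between replicates 1 and 2 correlated at 0.0153 between WT and Calu-KO across genes, and the block moved the counts of all genes from 112 higher and 217 lower to 181 and 312.

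Counts of genes higher and lower were 0 and 0 with no filter (3886 at an unadjusted p under 0.05, limma), 236 and 488 with limma-voom at total reads, 361 and 469 at the deposited scaling and 181 and 336 with the filter on reads. With a mean of at least 5 FPKM, 130 were lower. Leaving out a library gave 8 to 2926 higher and 34 to 2805 lower. For the 98 pathway genes it gave 0 to 30 higher and 0 to 21 lower, and the counts of lower genes were 4 and 3 with limma-voom at total reads and at the deposited scaling, and 2 with the filter on reads. Total-read scaling put the median of all genes at -0.10, and Sqstm1 at -0.73 relative to it.

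Signs turned for 6 members that were not called. With GC and length removed, the log2 change was 0.018 for Optn, 0.29 for Map1lc3a and 0.025 for Gabarapl1. For Atg5 it was -0.014 after rescaling and -0.078 with limma-voom at total reads. Leaving out a library gave ranges of -0.27 to 0.23 for Optn, -0.22 to 0.071 for Map1lc3a, -0.29 to 0.20 for Gabarapl2, -0.096 to 0.041 for Becn1 and -0.11 to 0.17 for Atg5. Gabarapl2 was called lower without Calu-KO replicate 1 (-0.29, limma adjusted p = 0.0474), where 23.6% of all genes were, and not without replicate 2 (0.20, 0.158). Signs of Nbr1, Map1lc3b and Gabarap did not turn in any of the 17. Depth limits Map1lc3a most, at 98 to 138 reads. The filter on reads, limma-voom at the deposited scaling and the GC and length correction were chosen after seeing the data. The GC correction used transcripts, and the planned version from a genome was not run.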
